A study of Drosophila melanogaster with 8 samples.

Results

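The genes described here are the 10 fly genes that set sexual identity and X chromosome dosage, namely Sxl, tra, tra2, dsx, fru, ix, her, msl-2, roX1 and roX2. They were taken by name from a table of 19299 features, in which all 10 were present. The samples were midguts of old female Drosophila melanogaster, 4 from flies given quercetin (Que, a plant flavonol) at 10 µM in DMSO and 4 from flies given DMSO alone. The flies of both groups were labelled female, WT (wild type) and 40-50 days of age, and the tissue as intestine. Feeding began at day 26 and lasted 14 days, and each RNA sample pooled 200 midguts. The labels do not say whether the samples of a group came from separate cultures, so the p-values measure the spread between these pooled samples, which may be technical.

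In the fly, Sex-lethal (Sxl) is the switch gene of female development. Its protein, made in females, binds RNA, keeps its own female splice form going, directs the female splicing of transformer (tra) and blocks translation of male-specific lethal 2 (msl-2). Tra protein, together with Tra2, splices doublesex (dsx) and fruitless (fru) into female forms, and female Dsx protein acts with the cofactor Intersex (Ix). In males, Msl-2 protein assembles the MSL complex with the non-coding RNAs roX1 and roX2, and this complex raises transcription of the single X chromosome. In the midgut, the female identity of intestinal stem cells, set by Sxl and tra, is known to make the organ larger and its stem cells more proliferative than in males.

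The measure was RPKM, reads per kilobase of gene length, scaled to the reads assigned to genes in the sample, so levels of different genes are compared per length. Between 27253832 and 34468658 reads were assigned in a Que sample and 32725908 to 35619139 in a DMSO sample. Differences between the groups were tested with limma on log2(RPKM + 0.1) for the 13249 features whose mean reached 0.1 RPKM, adjusted by Benjamini-Hochberg, and for single genes with an exact two-sided permutation test over 70 arrangements, whose smallest p is 0.0286. No feature reached an adjusted p of 0.05 (0% called, lowest adjusted p 0.0905), 479 (3.62%) had an unadjusted limma p under 0.05 and 283 (2.14%) had groups that did not overlap. The rank correlation of a gene's level, relative to the other samples, with its length was -0.38 in Que 3 and -0.30 in Que 1, against 0.52 in Que 2 and 0.48 in DMSO 2, over 8783 genes. Results were also computed with this trend removed from each sample.

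Transcripts of Sxl, tra, tra2, her, dsx, fru, ix and msl-2, with splice forms pooled, were present in every sample. For roX1 18 to 42 reads were detected in a sample, and roX2 was near the limit of detection. Between Que and DMSO, 0 of the 9 genes that could be tested passed an adjusted p of 0.05, 0 of 9 had an unadjusted limma p under 0.05, against 3.62% of all features tested, and in 0 of 9 were the groups apart, against 2.14%. Of the 9 fitted log2 fold changes 2 were positive and 7 negative, with a median of -0.08 and a range of -0.26 to 0.10, beside a median of -0.02 and 47.0% positive over all features. The 9 adjusted p-values lay between 0.946 and 0.9997 (limma).

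**Figure D1:**
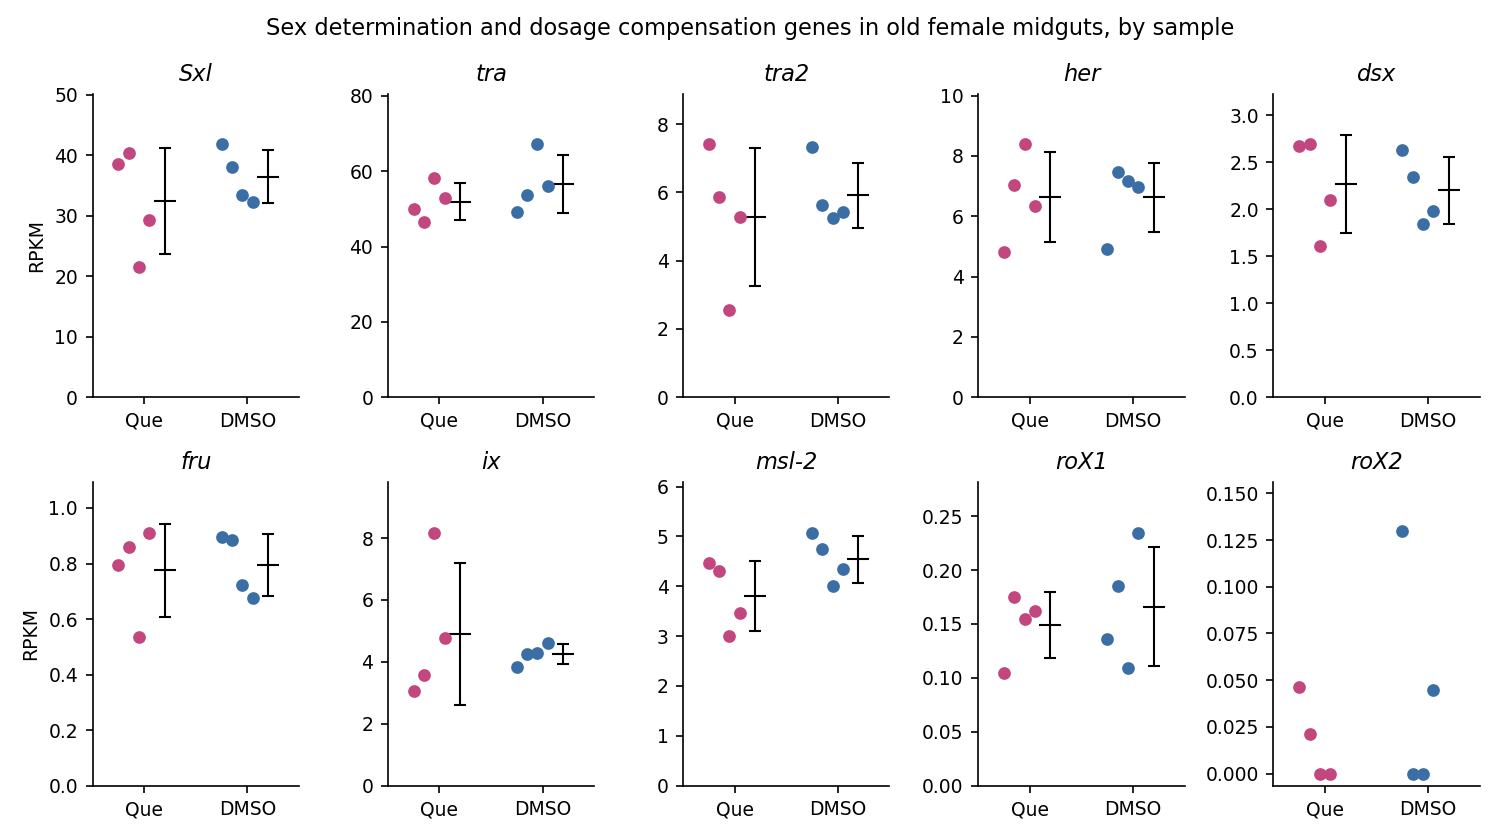
RPKM of each of the 10 genes in the 4 Que (left) and 4 DMSO (right) midgut samples, 1 point a sample in replicate order, with the mean and SD as a bar beside them (no bar for roX2, at 0 reads in 4 samples). The groups overlap in every panel, and Que 3 is the lowest of the 8 samples for Sxl, tra2, dsx, fru and msl-2 and the highest for ix and her.

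Sxl (FBgn0264270) lies on the minus strand of the X chromosome at 7074550-7098053 of the Release 6 genome and has 25 annotated transcripts over 9192 exonic bases. It was among the higher genes of this tissue, above 88.2% of all features, with 5407 to 12976 reads in a sample. Its level was 38.6, 40.4, 21.6 and 29.3 RPKM in the Que samples, against 41.9, 38.1, 33.5 and 32.3 RPKM in the DMSO samples. Que 3 and Que 4 were below all DMSO samples, and the other Que samples lay within the DMSO range. The means were 32.4 ± 8.72 RPKM in Que and 36.5 ± 4.38 RPKM in DMSO (SD, n = 4 each). The log2 fold change was -0.20, with a standard error of 0.19 and a 95% interval of -0.64 to 0.24 (exact permutation p = 0.457). Without Que 3 the fold change was -0.02, and with the length trend removed it was -0.06.

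Every count here sums all transcripts of a gene, so the female and male splice forms of Sxl, tra, dsx, fru and msl-2 are pooled in it and the sex of the transcripts was not read from these values. For tra the annotation holds 2 transcripts that differ in a single stretch of 175 bases (3L, 16590756-16590930), 20.3% of the counted length, which 1 of them keeps. This is the stretch that Sxl protein causes to be skipped in females. The reads on it were not counted apart from the rest of the gene.

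tra (FBgn0003741, 3L, 16590059-16591050, minus strand, 862 exonic bases) encodes the female splicing factor and had the highest level of the 10 genes, above 91.8% of all features. It stood at 50.0, 46.6, 58.2 and 53.0 RPKM in Que samples and at 49.3, 53.7, 67.2 and 56.0 RPKM in DMSO samples. DMSO 3 was the highest sample and Que 2 the lowest, with the others interleaved. The difference of 51.9 ± 4.94 RPKM in Que from 56.6 ± 7.63 RPKM in DMSO (SD, n = 4 each) was a log2 fold change of -0.12 (standard error 0.12, 95% interval -0.38 to 0.15, exact permutation p = 0.40), the narrowest interval among the 9. Without DMSO 3 it was -0.03. The exons of tra share 74 bases, 8.58% of its length, with the antisense gene l(3)73Ah. The labels name a stranded kit, but the strand setting of the counting is not given in the sources used here, so reads there cannot be assigned to one gene with certainty.

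tra2 (FBgn0003742, 2R, 14602004-14604337, minus strand), the RNA-binding partner of Tra, was 9.69-fold lower than tra per length. Its values were 7.41, 5.87, 2.55 and 5.28 RPKM in Que samples, against 7.33, 5.63, 5.26 and 5.44 RPKM in DMSO samples. Apart from Que 3, with 128 reads, all 7 samples lay between 5.26 and 7.41 RPKM with 308 to 456 reads. The log2 fold change of -0.25 had a standard error of 0.29 and an interval of -0.90 to 0.41 (exact permutation p = 0.743), and without Que 3 it was 0.06. Que 3 was also lowest after the trend of levels on gene length was removed, at 2.47 against 5.22 to 7.52 RPKM in the other samples.

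The proteins that work with Tra and Tra2 were a list of 7 genes with both of them, all tested. None passed in either direction, 1 fold change was positive and 6 were negative, with a median log2 fold change of -0.12. Their summed level was 145 to 151 RPKM in Que samples and 154 to 172 RPKM in DMSO samples, with no overlap. Each of the 7 genes by itself overlapped between the groups, and tra was the largest part of the sum. The sums of the other lists of pathway genes overlapped. Over single features 2.14% had groups that did not overlap, and no such share was computed for sums.

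Upstream of Sxl, her (FBgn0001185, hermaphrodite, 2L, 16677185-16679691, plus strand) encodes a zinc finger protein that the mother supplies for Sxl activation and that acts later in female differentiation. It was 4.80, 7.05, 8.39 and 6.33 RPKM in Que samples, against 4.91, 7.46, 7.15 and 6.96 RPKM in DMSO samples. The lowest sample of each group was its replicate 1, and the group means of 6.64 ± 1.497 RPKM in Que and 6.62 ± 1.16 RPKM in DMSO (SD, n = 4 each) were close to each other. The log2 fold change was -0.01 with a 95% interval of -0.44 to 0.43 (exact permutation p = 0.943). The interval leaves room for a level 0.735 to 1.35 times that of DMSO.

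The 11 genes that activate or restrain Sxl in the early embryo (the X-linked signal elements and their partners, with her) were also read. Of the 10 tested, 4 fold changes were positive and 6 negative, with a median of -0.01, and none passed in either direction. The X-linked signal gene sisA had 0 to 6 reads a sample, at 0.0816, 0.149, 0 and 0 RPKM in Que and 0.0761, 0.144, 0.231 and 0.157 RPKM in DMSO. Its fitted difference of -0.75 on the log2 scale (standard error 0.42, exact permutation p = 0.143) rests on those few reads. The highest of this list was emc, an inhibitor of bHLH proteins that is also used in adult tissues, at 46.3 to 61.2 RPKM in Que and 40.6 to 52.6 RPKM in DMSO (log2 fold change 0.12, standard error 0.12, exact permutation p = 0.371).

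Sxl splicing needs cofactors that include the m6A writer complex, and 11 such genes were measured and tested. Of these 5 fold changes were positive and 6 negative, with a median of -0.05. None passed the adjusted threshold, and 1, Flacc, had an unadjusted p under 0.05. Flacc, the adapter that holds Nito in the m6A writer complex, was 42.6, 39.8, 26.3 and 36.3 RPKM in Que samples and 50.4, 45.5, 43.0 and 43.5 RPKM in DMSO samples. All 4 Que samples were below all 4 DMSO samples, with a log2 fold change of -0.35 (standard error 0.15, unadjusted p = 0.0415, adjusted p = 0.946, limma). The exact permutation p of 0.0286 is the smallest that 4 against 4 samples can give. Flacc was the only 1 of 50 pathway genes tested with an unadjusted p under 0.05, beside 3.62% of all features. Groups that did not overlap were found in 2.14% of all features. The most abundant of the list, the splicing factor U2af50 that Sxl counters at tra, was at 67.6 ± 9.32 RPKM in Que and 61.9 ± 5.56 RPKM in DMSO (SD, n = 4 each, log2 fold change 0.12, exact permutation p = 0.343).

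The effectors downstream of Tra were lower than tra and Sxl. dsx (FBgn0000504, 3R, 7924323-7967408, minus strand) encodes the transcription factor whose female and male forms direct somatic sex. It was 2.67, 2.70, 1.61 and 2.10 RPKM in Que samples, against 2.63, 2.34, 1.85 and 1.98 RPKM in DMSO samples, from 397 to 841 reads. Que 1 and Que 2 were above all DMSO samples and Que 3 below them, with a log2 fold change of 0.03 (standard error 0.20, 95% interval -0.42 to 0.47, exact permutation p = 0.886). A stretch of 169 exonic bases, 1.87% of the gene, overlaps the antisense gene lds.

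fru (FBgn0004652, 3R, 18414273-18545586, minus strand) has 15 annotated transcripts, of which those from the distal promoter are spliced by sex and the others are common to both sexes. It was 0.795, 0.859, 0.535 and 0.911 RPKM in Que samples, against 0.896, 0.886, 0.722 and 0.676 RPKM in DMSO samples. Que 4 was the highest and Que 3 the lowest of all 8, and the log2 fold change was -0.05 (standard error 0.21, interval -0.52 to 0.43, exact permutation p = 0.83). It was 0.10 without Que 3, 0.12 with array weights and 0.09 with the length trend removed, so no direction is given for it.

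ix (FBgn0001276, 2R, 11359437-11360163, minus strand), a Mediator subunit that serves as the cofactor of female Dsx, is the shortest of the 10 genes at 727 bases in 1 exon. Its values were 3.06, 3.59, 8.18 and 4.79 RPKM in Que samples and 3.83, 4.25, 4.28 and 4.62 RPKM in DMSO samples. The SD was 2.30 RPKM among Que samples and 0.323 RPKM among DMSO samples, with Que 3 at 2.01 times the mean of the other 7 samples. The log2 fold change of 0.10 (standard error 0.27, interval -0.50 to 0.71, exact permutation p = 0.83) became -0.17 without Que 3.

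Genes under sex control further down were read as a list of 11 that includes dsx, fru and ix. Of 10 tested, 5 fold changes were positive and 5 negative, with a median of -0.01, and none passed in either direction. Yolk protein gene Yp1, a direct target of Dsx in the female fat body, was 17.7, 17.6, 28.2 and 24.3 RPKM in Que samples and 25.5, 23.0, 21.7 and 26.04 RPKM in DMSO samples (log2 fold change -0.16, standard error 0.16, exact permutation p = 0.371). bab1, a transcription factor gene regulated by Dsx in the abdomen, was 0.5002 to 0.532 RPKM in Que, against 0.292 to 0.547 RPKM in DMSO (log2 fold change 0.24, exact permutation p = 0.343). Whether the yolk protein reads come from midgut cells or attached fat body was not tested.

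**Figure D2:**
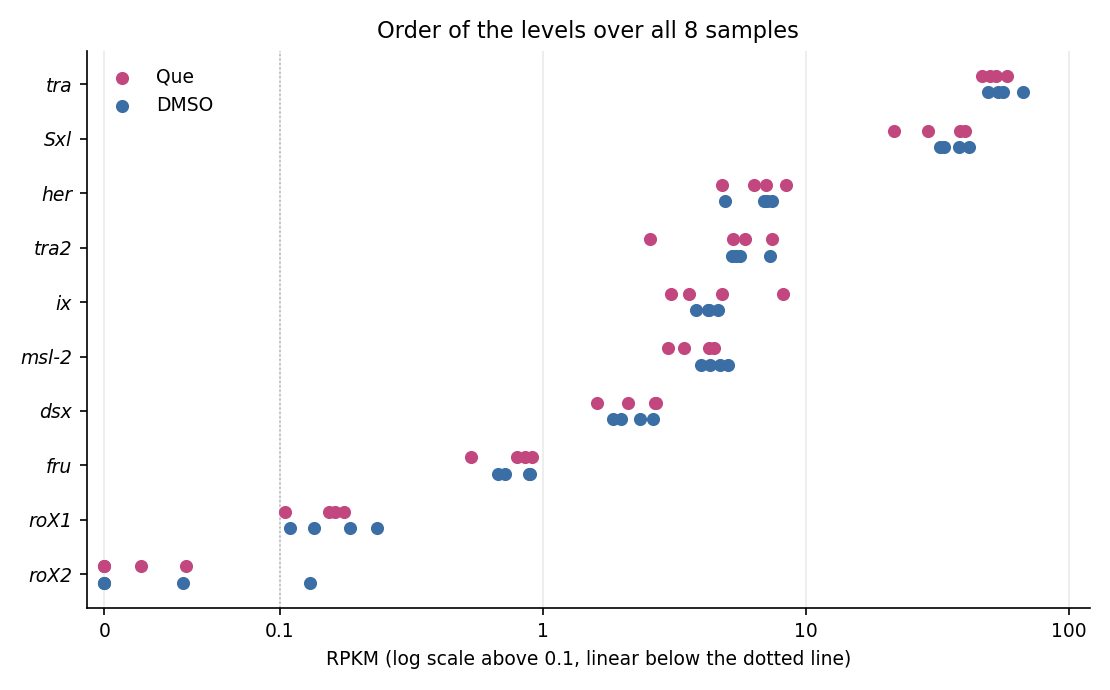
RPKM of the 10 genes in the 4 Que (upper row of each gene) and 4 DMSO (lower row) samples, in order of the mean over all 8, on a scale that is logarithmic above 0.1 RPKM and linear below it. tra and Sxl stand apart at the top, her, tra2, ix and msl-2 overlap between 2.55 and 8.39 RPKM, dsx overlaps tra2 in Que 3 but not msl-2, and fru and roX1 lie lower without overlap, with roX2 at 0 in 4 samples.

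Ordered by the mean over all 8 samples, tra (54.3 ± 6.44 RPKM, SD) was 1.57-fold above Sxl (34.4 ± 6.74 RPKM), and Sxl 5.19-fold above her (6.63 ± 1.24 RPKM), in both cases with no overlap of their ranges. her, tra2 (5.597 ± 1.51 RPKM), ix (4.58 ± 1.56 RPKM) and msl-2 (4.17 ± 0.675 RPKM) were each less than 1.23-fold from the next, and neighbours in that order did not differ beyond their spread. Below them dsx (2.24 ± 0.413 RPKM), fru (0.785 ± 0.132 RPKM) and roX1 (0.158 ± 0.0425 RPKM) were each lower than the gene before with no overlap, by 1.87-fold, 2.85-fold and 4.98-fold. roX2 came last at 0.0303 RPKM, and its range of 0 to 0.130 RPKM overlapped that of roX1. In midgut tissue of many cell types, fewer cells that express a gene and less RNA per cell cannot be told apart.

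Leaving out roX2, the spread was wider among Que than among DMSO samples for 7 of 9 genes. The same count was not made over all features, so it is not read as a trait of these genes. As a coefficient of variation it was widest for ix at 46.9% in Que, against 7.61% in DMSO, and for tra2 at 38.5% in Que, against 16.2% in DMSO. Without Que 3 the Que values were 23.2% for ix and 17.8% for tra2. The exceptions were tra, at 9.51% in Que and 13.5% in DMSO, and roX1, at 20.7% in Que and 33.3% in DMSO.

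msl-2 (FBgn0005616, 2L, 3462218-3466112, minus strand) encodes the RING finger subunit that is made in males and held back in females by Sxl, which blocks splicing of an intron in its 5′ leader and then translation. Its RNA was present in these female midguts at 4.46, 4.30, 2.998 and 3.46 RPKM in Que samples, against 5.08, 4.74, 4.01 and 4.34 RPKM in DMSO samples, from 314 to 658 reads. Que 3 and Que 4 were below all DMSO samples, all 4 Que samples were below the DMSO mean, and the groups overlapped. With means of 3.80 ± 0.695 RPKM in Que and 4.54 ± 0.467 RPKM in DMSO (SD, n = 4 each), the log2 fold change was -0.26 (standard error 0.16, 95% interval -0.61 to 0.09), and its unadjusted limma p of 0.125 was the lowest of the 9 genes (adjusted p = 0.946, exact permutation p = 0.171). It was -0.16 without Que 3 and lay between -0.34 and -0.16 in all 19 alternative fits, the adjusted p of which was at least 0.466.

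The intron that Sxl retains is annotated as exonic in 1 of the 2 msl-2 transcripts, over 133 bases (2L, 3465919-3466051), 3.46% of the counted length. The reads on it were not counted apart. A feature of 355 bases inside the msl-2 exons on the same strand (id-Dmel_CG3241) was listed on its own, with 19, 34, 38 and 33 reads in Que samples and 29, 33, 32 and 22 reads in DMSO samples. Relative to the whole gene per length it was 0.382, 0.646, 1.31 and 0.851 in Que samples, against 0.436 to 0.674 in the DMSO samples, and Que 3, the sample with the lowest msl-2 level, had the highest share on that stretch.

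The 4 genes that act with Sxl on msl-2 RNA all had a negative log2 fold change, with a median of -0.08, and none passed in either direction. Unr, the co-repressor that Sxl recruits to the msl-2 3′ UTR, was 19.4, 21.9, 10.2 and 15.2 RPKM in Que samples and 20.04, 20.6, 17.8 and 15.9 RPKM in DMSO samples (log2 fold change -0.20, standard error 0.22, exact permutation p = 0.543). Que 3 was again the lowest, and without it the value was 0.01. Hrb27C, the abundant RNA-binding protein also called Hrp48, was at 306 ± 33.2 RPKM in Que and 314 ± 24.9 RPKM in DMSO (SD, n = 4 each, log2 fold change -0.04, exact permutation p = 0.714).

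Of the MSL complex with its recruiters, 9 genes were measured and 8 tested. The fold changes were negative for 7 and positive for 1, with a median of -0.08, and none passed in either direction. Protein subunits other than Msl-2 are made in both sexes, and their RNAs were at 12.3 RPKM (msl-1), 11.1 RPKM (msl-3), 2.63 RPKM (mof, the histone acetyltransferase) and 12.3 RPKM (mle, the RNA helicase) on the mean of 8 samples. msl-1, the scaffold, had the largest change of these in size, at 10.9 ± 3.12 RPKM in Que and 13.6 ± 2.33 RPKM in DMSO (SD, n = 4 each, log2 fold change -0.35, standard error 0.21, exact permutation p = 0.200), while mle was the positive one at 0.03. Clamp, the zinc finger protein that brings the complex to the X, was 21.5, 19.9, 12.0 and 16.8 RPKM in Que samples and 19.9, 18.3, 16.9 and 17.2 RPKM in DMSO samples (log2 fold change -0.07, exact permutation p = 0.771), and 0.10 without Que 3. msl-1 was named after its values were seen.

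**Figure D3:**
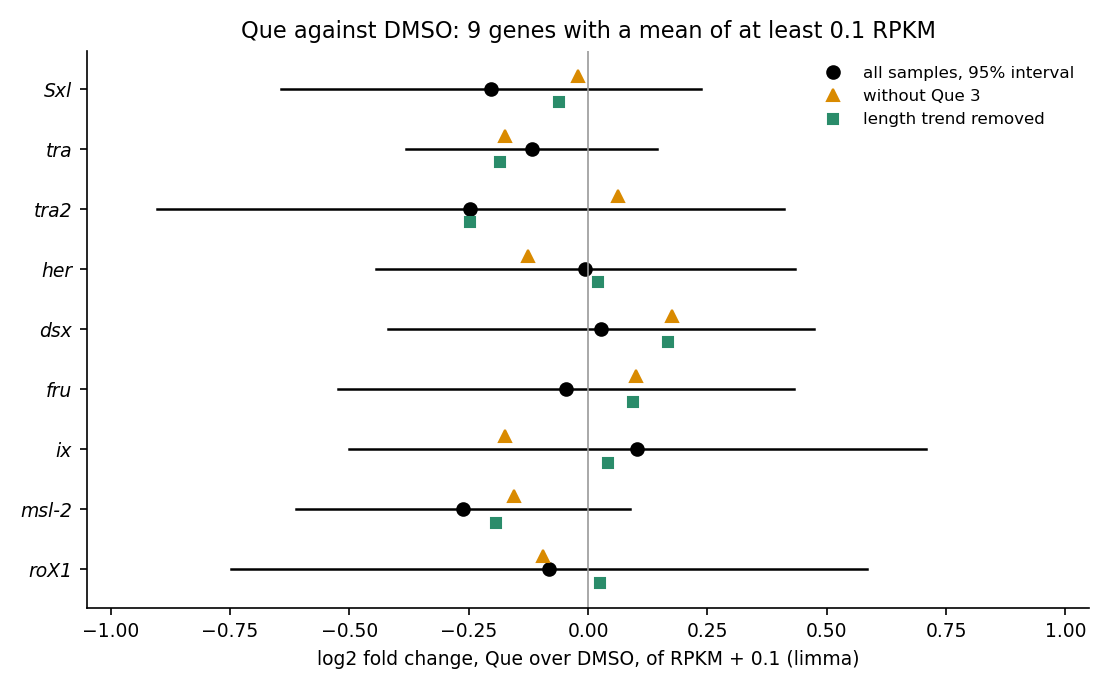
log2 fold change of Que over DMSO (limma, log2 of RPKM + 0.1) for the 9 genes tested, with the 95% interval from all 8 samples (circle and line), without Que 3 (triangle) and after removal of the length trend (square). All 9 intervals include 0, and tra2, fru and ix change sign without Que 3.

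roX1 and roX2 are the RNAs of the MSL complex. roX1 is also made in early embryos of both sexes, and both are abundant in adult male tissue and near absent in adult females. roX1 (FBgn0019661, X, 3857230-3862697, minus strand, 5468 bases) had 18, 33, 23 and 28 reads in Que samples and 25, 36, 20 and 42 reads in DMSO samples. As levels these were 0.105, 0.175, 0.154 and 0.162 RPKM in Que, against 0.136, 0.185, 0.110 and 0.235 RPKM in DMSO. The groups overlapped, with a log2 fold change of -0.08 on the log2(RPKM + 0.1) scale (standard error 0.30, interval -0.75 to 0.58, exact permutation p = 0.657), and 36.3% of all features were lower. Of its exons 392 bases, 7.17% of its length, overlap the antisense gene ec. Over all its 8400 bases ec had 22.8 reads a sample on average. A part of the roX1 reads may therefore belong to ec, and reads on the shared stretch were not counted apart.

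roX2 (FBgn0019660, X, 11579065-11580432, plus strand, 1368 bases) had 2, 1, 0 and 0 reads in Que samples and 6, 0, 0 and 2 reads in DMSO samples. That is 3 reads in Que and 8 in DMSO over all samples, with 4 of the 8 samples at 0, and its mean of 0.0303 RPKM was too low for the test. If reads are independent, a count of 0 leaves room for an expected count of up to about 3 reads. The highest observed count was the 6 reads of DMSO 1, and its difference from the samples at 0 was not tested. Sequencing was paired-end, and whether the mates of a pair were counted apart is not given in the sources used here. If they were, the 6 reads come from fewer fragments. As a mean over all samples, roX1 was 344-fold lower than tra per length.

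Other genes of male tissue were low as well. The 18 Y-linked features had 8 to 34 reads a sample in Que and 12 to 45 in DMSO, and 108 of their 176 reads fell on FDY, which has a near-identical autosomal copy, so its reads are uncertain. Of 13 testis genes matched, 12 had a mean under 1 RPKM and the summed level was 2.27 to 2.96 RPKM in Que, against 2.80 to 3.84 RPKM in DMSO. Most of it was topi, a testis transcription regulator, at 1.63, 1.98, 2.01 and 2.31 RPKM in Que and 1.80, 2.17, 2.71 and 2.95 RPKM in DMSO (log2 fold change -0.25, exact permutation p = 0.229). All 9 accessory gland genes had a mean under 1 RPKM, the highest being Acp95EF at 0.523 to 0.781 RPKM in Que and 0.366 to 1.48 RPKM in DMSO, with sums of 1.03 to 1.59 RPKM in Que and 0.678 to 2.07 RPKM in DMSO.

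Female germline genes were low as well, with 15 of 17 ovary and eggshell genes under 1 RPKM and a summed level of 4.56 to 6.48 RPKM in Que, against 4.57 to 8.92 RPKM in DMSO. DMSO 1 was the highest, with 1.55 RPKM of the oocyte gene osk, which was at 0 in all Que samples and at 0.0207 to 0.0406 RPKM in the other DMSO samples. The osk groups did not overlap (log2 fold change -1.32, exact permutation p = 0.0286, adjusted p = 0.946, limma). Apart from DMSO 1, its values were below the 0.1 RPKM added before the log. The germline helicase gene vas was 1.24, 1.054, 0.931 and 0.554 RPKM in Que, against 2.45, 1.30, 1.25 and 0.963 RPKM in DMSO (log2 fold change -0.57, exact permutation p = 0.143, and -0.32 without DMSO 1). grk, the oocyte ligand gene, was 1.18, 1.27, 1.69 and 1.602 RPKM in Que, against 1.09, 0.817, 1.17 and 0.854 RPKM in DMSO, with no overlap (log2 fold change 0.50, adjusted p = 0.946, limma). Among all features tested, 2.14% had groups that did not overlap. The part of these traces in the levels of the 10 genes was not tested.

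Cells of the midgut itself were marked by the enterocyte, enteroendocrine and progenitor genes. The summed enterocyte level was 9178 to 11619 RPKM in Que and 7340 to 10096 RPKM in DMSO, most of it from trypsin and amylase genes. Of the 8 enterocyte markers 5 fold changes were positive and 3 negative, with alphaTry at 0.33 (exact permutation p = 0.0571) and betaTry at 0.36 (unadjusted p = 0.0424, adjusted p = 0.946, limma), and with the transcription factor gene nub at -0.19, Myo31DF at -0.09 and Myo61F at -0.06. The progenitor sum was 29.1 to 40.4 RPKM in Que and 30.1 to 37.2 RPKM in DMSO, with a log2 fold change of 0.03 for esg, 0.10 for E(spl)malpha-BFM and -0.26 for Dl, the stem cell ligand gene (exact permutation p = 0.0571), of which 3 of 4 Que samples were below all DMSO samples. The enteroendocrine sum was 799 to 1169 RPKM in Que and 783 to 1026 RPKM in DMSO, with 4 of 5 fold changes positive (Tk, 0.04). The visceral muscle sum was 526 to 883 RPKM in Que and 501 to 761 RPKM in DMSO, with 4 of 5 fold changes positive and a median of 0.25, and up, the most abundant, was the negative one at -0.18 (-0.02 without Que 1). None of these markers passed the adjusted threshold. Summed neuron markers were in every Que sample below all DMSO samples, at 10.7 to 12.3 RPKM in Que and 12.5 to 13.0 RPKM in DMSO. Most of that sum was nSyb, at 7.25 to 7.65 RPKM in Que and 7.85 to 8.30 RPKM in DMSO (log2 fold change -0.12, exact permutation p = 0.0286, adjusted p = 0.946, limma). The other neuron markers overlapped between the groups, and of 5 tested 1 fold change was positive and 4 negative. Over all features tested, 2.14% had groups that did not overlap. fru and dsx are also expressed in neurons, and the part of these markers in their values was not tested. Fat body markers summed to 44.7 to 83.8 RPKM in Que and 47.4 to 66.3 RPKM in DMSO. The yolk protein genes made up most of this, at means of 23.0 (Yp1), 17.6 (Yp2) and 12.7 RPKM (Yp3) over all samples. Of the other fat body markers Lsd-1 was at 6.17 RPKM, and Lsp2, Fbp1 and apolpp were at 0.557, 0.126 and 0.593 RPKM. Hemocyte markers summed to 4.75 to 7.50 RPKM in Que and 4.35 to 6.35 RPKM in DMSO. Nearly all of this was srp, at a mean of 5.44 RPKM (log2 fold change 0.06), with Hml, NimC1 and eater at 0.0824, 0.0356 and 0.0485 RPKM.

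The MSL complex acts on the X as a whole, so the level of X-linked genes was compared with that of chromosomes 2 and 3 within each sample. Over 1491 X-linked and 7504 autosomal genes at a mean level of 1 RPKM or more, the X median minus the autosomal median of log2(RPKM + 0.1) was 0.133, 0.109, 0.0615 and 0.114 in Que samples, against 0.124, 0.0895, 0.109 and 0.0401 in DMSO samples. X-linked genes were therefore slightly above the autosomal median in all 8 samples, and the groups overlapped. The means were 0.104 ± 0.0304 in Que and 0.0907 ± 0.0365 in DMSO (SD, n = 4 each), a difference of 0.0136 (exact permutation p = 0.571) that turned to -0.00781 without DMSO 4. Of 2083 X-linked features tested, 29 had a positive and 43 a negative change with an unadjusted p under 0.05, or 3.46% of them, beside 3.62% of all features.

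**Figure D4:**
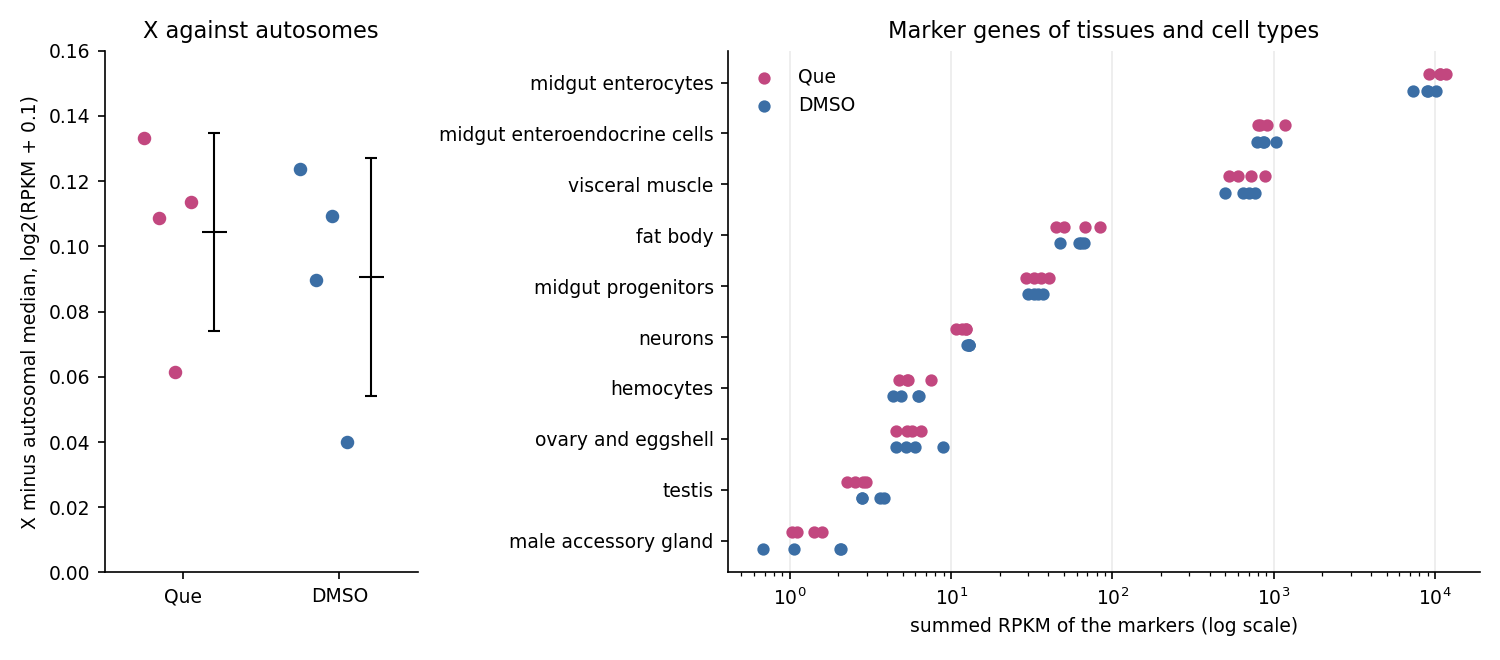
Left, X-linked minus autosomal median of log2(RPKM + 0.1) in the Que and DMSO samples with the mean and SD as a bar; right, summed RPKM of marker genes per sample on a log scale, Que above DMSO in each row. The X values of all samples lie between 0.0401 and 0.133, and testis and accessory gland sums stay below 3.84 RPKM while enterocyte sums exceed 7340 RPKM.

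Que 3 was at an extreme in most of these genes. It was the lowest of the 8 samples in 5 of the 9 genes tested (Sxl, tra2, dsx, fru and msl-2) and the highest in 2 (ix and her). How often Que 3 was lowest or highest was not counted over all features, so this is not read as a trait of these genes. Its level was 0.422 times the mean of the other 7 samples for tra2, 0.595 times for Sxl, 0.652 times for fru and 1.32 times for her. The genes above 1 were the short ix and tra with her, and the genes of 9053 bases or more were all below 0.7. Length did not order the others. tra2, at 1844 bases shorter than her at 2378 bases, was the lowest at 0.422. msl-2 with 3843 bases was at 0.691, and the longer roX1 with 5468 bases was at 0.976. After removal of each sample's length trend it was still lowest in 3 genes (Sxl, tra2 and msl-2) and highest in ix and her, at 26.7 against 28.8 to 45.1 RPKM for Sxl and at 7.33 against 2.85 to 4.77 RPKM for ix. The cause was not tested.

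**Figure D5:**
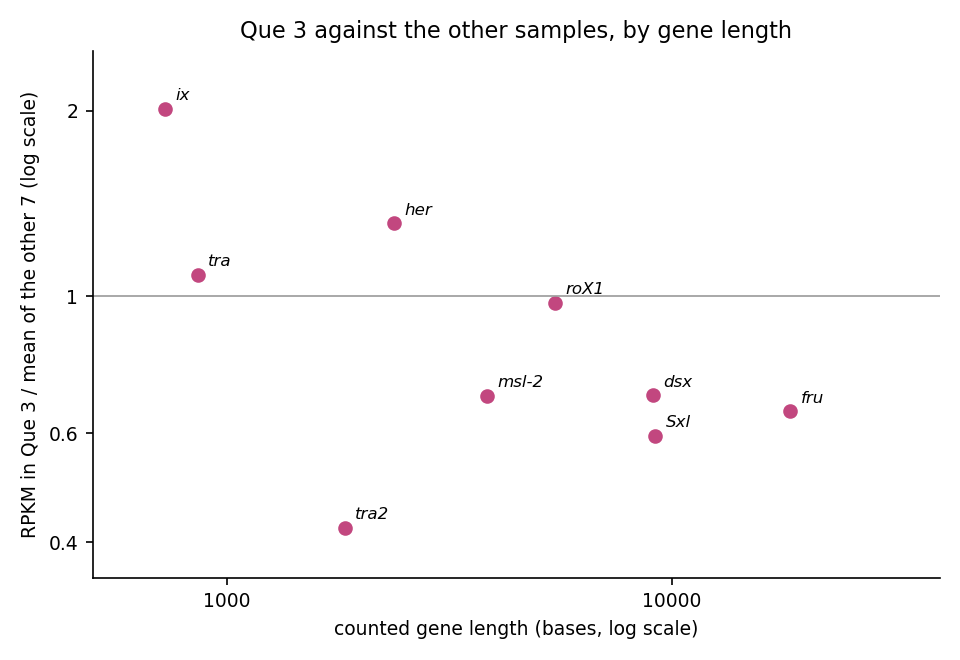
RPKM in Que 3 over the mean of the other 7 samples (y, log scale) against the counted length of the gene in bases (x, log scale) for the 9 genes tested. ix lies at 2.01, her at 1.32 and tra2 at 0.422, and the 3 genes of 9053 bases or more, dsx, Sxl and fru, lie between 0.595 and 0.692.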

How the data were processed

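Stranded mRNA libraries carrying molecular tags were made from pooled midguts of female flies (4 Que, 4 DMSO, grouped by sample title). The authors trimmed reads (Trimmomatic 0.36), merged those with the same tag, aligned them (STAR 2.5.3a), counted them per gene (featureCounts 1.5.1) and deposited RPKM values with a gene length column. Annotation release, strand setting and handling of multiply mapped reads are not given in the sources used here. RPKM multiplied by length gave whole reads for 100% of values (tolerance 0.05), so reads could be recovered, and 3 reads corresponded to 0.0842 to 0.110 RPM, for counting error only.

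log2(RPKM + 0.1) of features with a mean of at least 0.1 RPKM was fitted in R 4.3.3 (limma 3.58.1, statmod 1.5.0) with an intensity trend and Benjamini-Hochberg adjustment over all features. The fit was also run on simulated counts. These lacked the length trends of the samples, so the run does not measure how the fit performs on these data. Exact tests, tables and plots used SciPy 1.17.1, matplotlib 3.10.9, pandas 2.3.3 and NumPy 2.4.6 under Python 3.11.15. All 10 genes had the same start and end in RefSeq and in the annotation of the same assembly. Sequences were not used here.

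The genes and lists were chosen with earlier results of these data known. Besides the 10 genes, the text names, from each of 6 pathway lists, the gene of highest level, that of lowest p and any with an unadjusted p under 0.05, from each of 10 marker lists that of highest level and any with such a p, and genes whose exons overlap one of the 10. osk, nub, Myo31DF, Myo61F, Dl, E(spl)malpha-BFM and the remaining MSL complex subunits were named after their values were seen. List genes with no matching name were not used here. A result that this rule would name is not reported here. Alternatives were the pseudocount, the filter, scaling, the variance model, array weights, a block for the replicate number, voom on recovered reads, each sample left out and, added after the values were seen, a loess correction (span 0.5) of every sample for gene length.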

Additional observations from a re-analysis of the deposited data

Results flagged for a closer look

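Among 64 groups of 4 samples checked, 1 held a sample far from the other 3, and chance alone would give about 3.2 such groups. It was emc, the restrainer of Sxl activation, in DMSO, where DMSO 3 stood at 40.6 RPKM and the other 3 samples at 50.9 to 52.6 RPKM. The gap was 0.862 of the range of the group. Without DMSO 3 the log2 fold change of emc, Que over DMSO, was 0.03, against 0.12 with all samples.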

How the results depend on the processing

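The 9 tested genes gave 169 values over 19 alternative fits, of which 0 passed an adjusted p of 0.05 and 22 changed sign. Sxl, tra and msl-2 kept their sign throughout. msl-2 had an unadjusted p of 0.0467 with array weights and 0.0428 with the replicate block, and no other gene of the 10 had one under 0.05 in any fit. Against 0 features at an adjusted p of 0.05, 2 were called with no filter, 3 by empirical Bayes without the trend, 2 with array weights and 0 to 2 with a sample left out, all with at most 12 reads in total. At an unadjusted p under 0.05 there were 315 features at a mean of at least 1 RPKM, 1401 with array weights, 1117 with the replicate block and 353 to 1170 with a sample left out, against 479. Scaling by the median of ratios, quantile normalization and voom gave 479, 496 and 450.

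The sign of the log2 fold change turned for fru with array weights (0.124) and for fru, roX1, her and Hrb27C with the length trend removed (0.0947, 0.0253, 0.0216 and 0.0982). For her it turned with median-of-ratios scaling (0.00633) and quantile normalization (0.0172), for Tk with quantile normalization (-0.0234) and for srp with array weights (-0.0536). The X-linked minus autosomal difference was -0.00295 at a mean of at least 0.1 RPKM. The causes were not tested. Leaving out 1 sample gave ranges that cross 0, of -0.44 to 0.0623 for tra2, -0.0617 to 0.175 for dsx, -0.123 to 0.101 for fru, -0.189 to 0.0361 for roX1, -0.173 to 0.29 for ix and -0.14 to 0.139 for her. The same held for Hrb27C (-0.101 to 0.0266), Unr (-0.354 to 0.0105), Clamp (-0.179 to 0.0991), Acp95EF (-0.445 to 0.142), esg (-0.0899 to 0.138), Tk (-0.0981 to 0.142), srp (-0.0815 to 0.142) and the X-linked minus autosomal difference (-0.00781 to 0.0257).

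Replicate numbers paired the samples only in part. Deviations of same-numbered samples from their group means correlated at 0.486 for number 1 and 0.281 for number 2. For numbers 3 and 4 the correlations were 0.0678 and 0.0148. Of 8 samples, 4 correlated best with their own number. The labels do not say what same-numbered samples share, and this was not tested. The main fit holds no block, and with the replicate block the X-linked minus autosomal difference was 0.0136 (exact p = 0.625). Depth limits roX1, roX2 and sisA, at most 42, 6 and 6 reads a sample, where no change can be read. For the other genes the standard errors of 0.12 to 0.29 on the log2 scale set what 4 samples a group can show, and gene-level counts do not separate the splice forms by which these genes act.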

Other observations

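Chromosome 4, which is bound by its own chromosome-wide protein Pof in both sexes and carries none of the 10 genes, had a median log2 fold change of -0.12 over 350 features tested. The medians of the X and the arms of chromosomes 2 and 3 lay between -0.02 and -0.01. Of the chromosome 4 features 6 had a positive and 12 a negative change with an unadjusted p under 0.05, and the median level on that chromosome was 0.513 RPKM, against 4.23 to 5.95 RPKM on the others. This chromosome was singled out after its values were seen, and the difference was not tested.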
